A study of Mus musculus with 1 sample.

Results

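The 8 genes described here are the islet hormone genes of the mouse pancreas and 3 of their companions: Ins1 and Ins2 (the insulin genes), Gcg (glucagon), Sst (somatostatin), Ppy (pancreatic polypeptide), Iapp (islet amyloid polypeptide), and Chga and Chgb (the granins chromogranin A and chromogranin B). They were picked by symbol from the 32285 genes listed in the library, and all 8 were found there. The data are 1 droplet single-cell RNA sequencing library of Scap f/f mice aged 2 weeks, which carry loxP sites around Scap and no Cre, and so serve as animals with an intact gene. The pancreata of 5 to 6 animals, with males and females in equal number, went into that 1 library, so animals cannot be told apart and no value below has a replicate. Every interval is a 95% interval and covers counting error only. The library held 11789 barcodes and 51540177 unique molecular identifiers (UMIs, each counted once for 1 captured transcript), and 10947 barcodes passed limits of 800 and 100000 UMIs and of 15% mitochondrial UMIs, with a median depth of 2650 UMIs.

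The islets of Langerhans are small clusters of endocrine cells scattered through an organ made mostly of acinar cells, which secrete digestive enzymes. Beta cells make insulin and, in smaller amounts, islet amyloid polypeptide, alpha cells make glucagon, delta cells make somatostatin, and PP cells make pancreatic polypeptide. Hormone precursors are cut by the proteases encoded by Pcsk1 and Pcsk2 and stored in dense granules together with the granins. Mice carry a pair of insulin genes, of which Ins1 is a copy of Ins2 that lacks an intron.

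In the GENCODE M21 annotation of the mouse build GRCm38, Ins1 lies on the plus strand at chr19:52264297-52265476 and its transcript has 2 exons, whereas the Ins2 transcript used here has 3 exons on the minus strand at chr7:142678661-142679717. Gcg (minus strand, chr2:62474530-62483650), Sst (minus strand, chr16:23889573-23890958) and Ppy (minus strand, chr11:102099930-102101319) encode the other hormones. Iapp (plus strand, chr6:142298423-142303961), Chga (plus strand, chr12:102554969-102565028) and Chgb (plus strand, chr2:132781278-132795079) complete the set. Iapp overlaps 1 gene of the opposite strand, Slco1a5, and the other 7 overlap none.

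The 2 insulin genes are nearly the same in sequence, which bears on each of their counts below. Of 330 aligned columns of their coding parts, 301 (91.2%) were identical, and the longest identical stretch had 54 bases. The last 90 coding bases are shown because a library read from the 3′ end of transcripts samples this side of the gene. Both are written 5′ to 3′ from the GENCODE M21 transcripts, with the 4 bases that differ in capitals.
Ins1: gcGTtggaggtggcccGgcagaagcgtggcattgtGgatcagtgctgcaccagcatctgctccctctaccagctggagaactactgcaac
Ins2: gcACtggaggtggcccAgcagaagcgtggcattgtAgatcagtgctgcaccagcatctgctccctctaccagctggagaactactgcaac
Downstream of the stop codon the transcripts diverge, with no shared stretch longer than 22 bases. Ins1 has 526 bases there and Ins2 has 52. Reads that fall wholly inside an identical stretch cannot be assigned to 1 gene, and under the default settings of Cell Ranger such reads are left out. The counts of Ins1 and Ins2 thus rest on reads that tell the genes apart. The share left out for each gene was not measured, so Ins1 per Ins2 is uncertain to that extent.

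Most transcripts of the 8 genes sat in very few cells at the depth limits used here. A cell was called hormone-rich when it held 10 or more UMIs of Ins1, Ins2, Gcg, Sst or Ppy, and 22 of the 10947 cells did (0.201%, Clopper-Pearson interval 0.126 to 0.304%). Of the 22, 17 held over 10000 UMIs, the upper limit that the paper states, and values under that limit are given at the end. These 22 cells held 41793 of the 45555 Ins2 UMIs (91.7%) and 22759 of the 24545 Ins1 UMIs (92.7%). They held 9095 of 9557 Gcg UMIs (95.2%), 148 of 156 Sst UMIs (94.9%) and 130 of 160 Ppy UMIs (81.3%). The companions, which had no part in choosing the cells, were spread likewise, with 3753 of 4272 Iapp UMIs (87.9%), 267 of 298 Chga UMIs (89.6%) and 69 of 81 Chgb UMIs (85.2%) in the same 22 cells. Single cells weighed heavily on these totals. The cell richest in each gene held 35.5% of all Ins2, 40.7% of all Ins1 and 34.2% of all Gcg UMIs, but 88.5% of all Sst and 70.0% of all Ppy UMIs. Without that cell, 55.6% of Sst and 37.5% of Ppy UMIs were left in hormone-rich cells.

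The 22 cells fell into 2 unlike sets when the hormone count was set against the depth of the cell. In 13 cells at least 0.1% of all UMIs came from 1 hormone gene, between 0.233% (138 of 59269 UMIs, Sst) and 44.6% (2088 of 4684 UMIs, Ins2). In the other 9 cells the leading hormone made up 0.0100 to 0.0394% of UMIs. Of these 9, 8 held 10 to 13 Ins2 UMIs among 57217 to 99970 UMIs, and 1 held 12 Gcg UMIs among 30426. Neither Chga nor Chgb had a UMI in any of the 9, and Iapp had 1 UMI in 8 of them and 0 in the other. Digestive enzyme transcripts made up 31.3 to 52.5% of their UMIs, against a median of 0.596% in the 13 cells.

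Transcripts that the rule did not use were also higher in the 13 cells, although the insulin cell of 4684 UMIs and the Sst cell of 1130 UMIs held 5 and 1 UMIs of them. Over 12 endocrine markers other than the members (Pcsk1, Pcsk2, Pcsk1n, Scg2, Scg3, Neurod1, Isl1, Pax6, Nkx2-2, Insm1, Slc30a8 and G6pc2), the 13 cells held 1 to 520 UMIs with a median of 115, the 9 cells 0 to 6 with a median of 3, and the 10925 remaining cells 0 to 12 with a median of 0. Scaled to counts per 1000000 UMIs (CPM), the markers stood at 6512 CPM (6220 to 6815) in the 13 cells, 46.5 CPM (31.6 to 66.0) in the 9 cells and 47.0 CPM (45.1 to 49.0) in the remaining cells. The last intervals overlap, so at this depth no difference in these markers was detectable between the 9 cells and the cells outside the hormone-rich set. The Ins2 level of the 9 cells, 137 CPM (110 to 168), was set in part by the minimum of 10 UMIs that chose them. Among the remaining cells over 50000 UMIs, all 56 held Ins2, at 1 to 8 UMIs and 71.3 CPM (62.9 to 80.5).

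**Figure D1:**
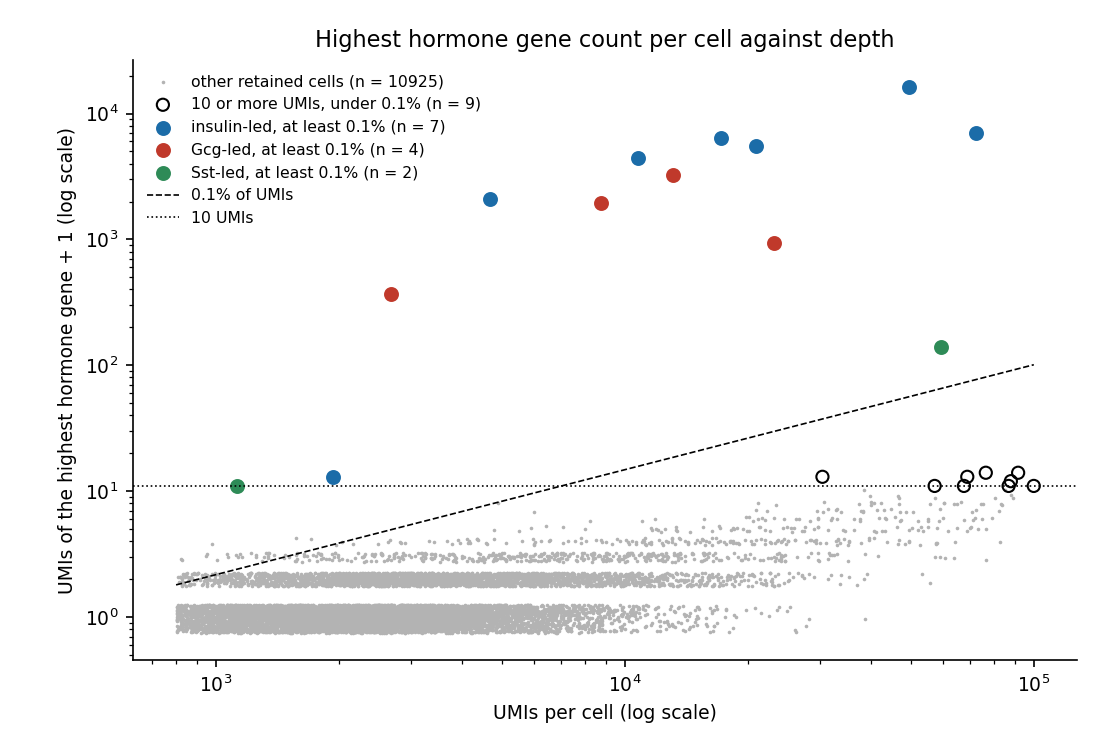
UMIs of the highest of the 5 hormone genes in each of the 10947 cells, plus 1 and with vertical jitter for the grey points, against UMIs per cell, both on log scales. The 13 coloured cells lie above the dashed line of 0.1% at every depth from 1130 to 72266 UMIs, whereas the 9 open circles lie at 10 to 13 UMIs in cells of 30426 UMIs or more, at the upper end of the grey cells.

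Counts just inside and outside the minimum formed no gap among deep cells. There were 11 cells with 10 to 13 UMIs of their highest hormone gene and 29 with 7 to 9. Of the 29 cells outside, the shallowest had 4889 UMIs and 7 Ins2 UMIs (0.143%), and no other reached 0.1%. The 2 nearest the minimum held 9 Ins2 UMIs among 38449 and 9 Ins1 UMIs among 84913.

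Insulin led in 7 of the 13 cells. Their Ins2 counts were 16167, 6993, 6384, 5475, 4447, 2088 and 0, and their Ins1 counts, in the same order of cells, were 9986, 3411, 3779, 2520, 2070, 884 and 12. In 6 of the 7 both genes therefore reached 884 UMIs or more, and the seventh held 12 Ins1 UMIs and no Ins2. Hormone transcripts (Ins1, Ins2, Gcg, Sst and Ppy together) made up 18.1 to 63.5% of all UMIs in those 6 cells. The seventh cell, cell 7, was shallow (1932 UMIs), had 12.5% of its UMIs from digestive enzymes, and held 34 Iapp, 47 Pcsk1n (a granule protein that inhibits the protease of Pcsk1) and 13 Pcsk2 UMIs, so that its hormone count was low while other endocrine transcripts were present. The cell of 4684 UMIs, cell 6, was of the opposite kind, with 2088 Ins2 and 175 Iapp UMIs but 5 UMIs of 2 of the 12 endocrine markers.

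Gcg led in 4 of the 13 cells, with 3266, 1949, 943 and 366 Gcg UMIs. These were 25.0, 22.3, 4.07 and 13.6% of the UMIs of the cells. The cell with 943 Gcg UMIs also drew 31.7% of its 23178 UMIs from digestive enzymes, against 0.436 to 0.596% in the other 3, and the part of a second cell in that droplet was not tested. All 4 held Ttr (transthyretin, abundant in alpha cells), at 299, 122, 64 and 58 UMIs, and Pcsk2 (the protease that frees glucagon), at 136, 68, 74 and 17 UMIs. Pcsk1, which makes other peptides from the same precursor, had 0 UMIs in all 4.

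Sst led in 2 cells, and they had little in common. One held 138 Sst UMIs among 59269, together with 91 Ins2, 68 Ins1 and 30 Iapp UMIs, and with 22.3% of its UMIs from digestive enzymes. The other held 10 Sst and 13 Pyy UMIs (peptide YY, a relative of pancreatic polypeptide) among 1130, and 1 endocrine marker UMI, beside 77 UMIs of 6 fibroblast markers. With 10 UMIs it stood at the minimum itself. Hhex, a transcription factor of delta cells, had 5 UMIs in the first and 0 in the second. It was not particular to Sst-led cells. Without any Sst UMI, the insulin-led cell of 72266 UMIs held 24 and an enzyme-rich cell of 68761 UMIs held 9. In the remaining cells Hhex stood at 21.8 CPM.

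Ppy led in none of the 22 cells. Its highest count, 112 UMIs, was in cell 2, which also held 6993 Ins2, 3411 Ins1 and 2548 Gcg UMIs, and 3 other hormone-rich cells held 8, 7 and 3. Pyy was the more abundant of the pair, with 1062 UMIs in the 22 cells against 130 of Ppy, and with 1 UMI or more in 12 of them. Its counts of 247, 199, 166, 145, 139, 64, 56, 25, 13, 6 and 1 in 11 of the 13 cells covered insulin-led, Gcg-led and Sst-led cells. The summed levels were unlike, at 2729, 8912 and 2517 CPM in that order. Of the 484 Pyy UMIs in insulin-led cells, 247 were in cell 2. Outside the 22 cells Pyy had 75 UMIs in all.

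**Figure D2:**
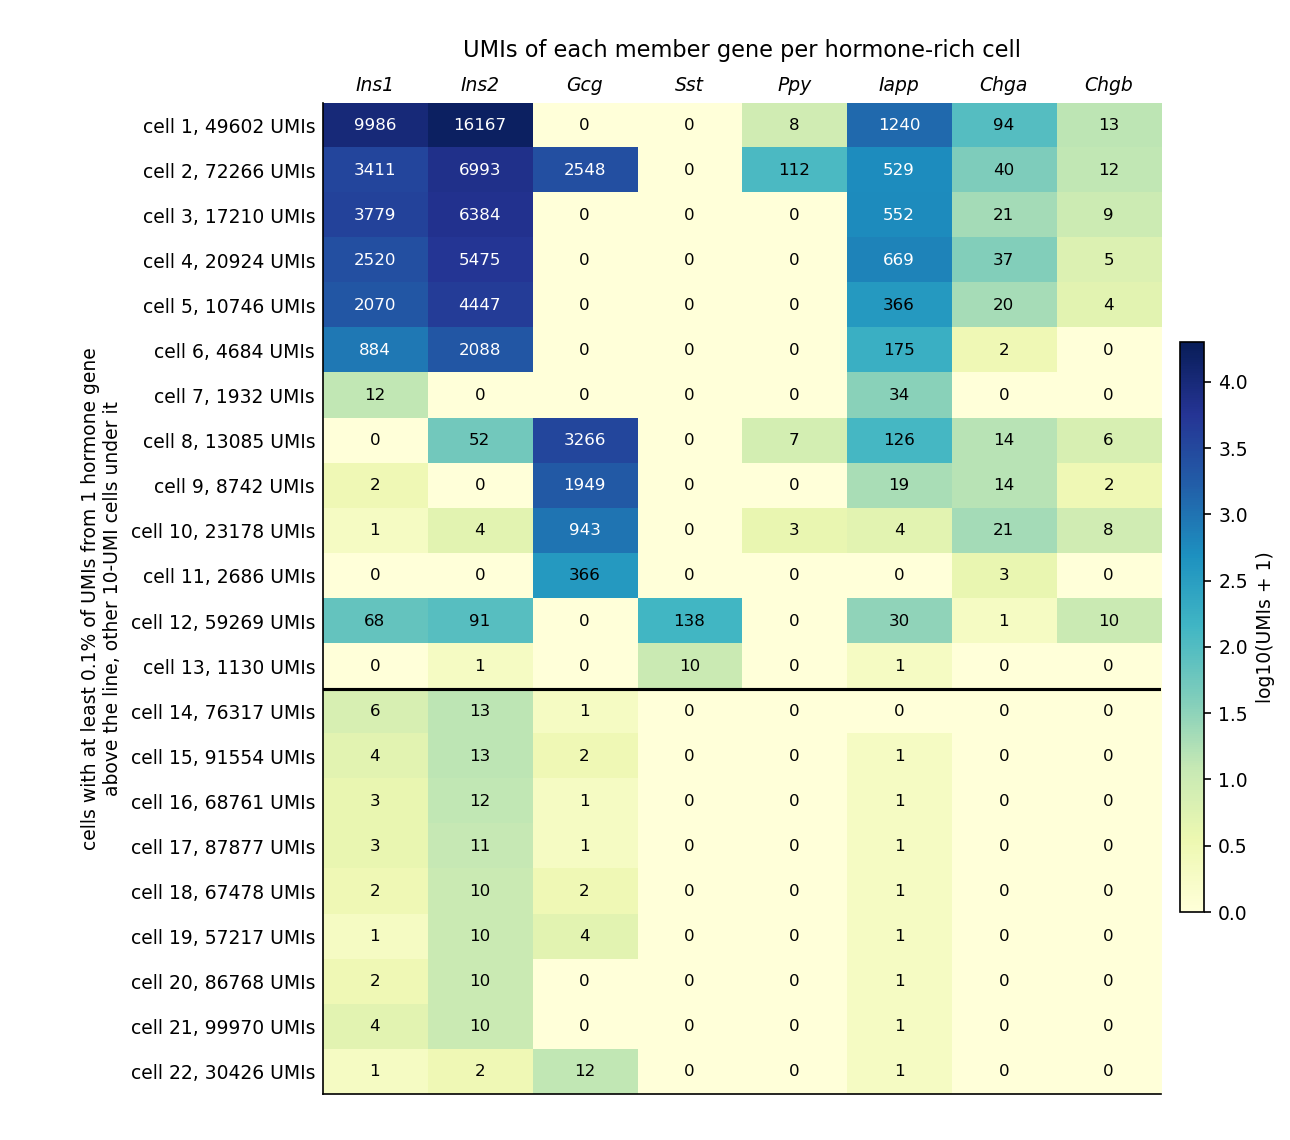
UMIs of the 8 genes (columns) in each of the 22 hormone-rich cells (rows, with the depth of each cell), coloured by log10(UMIs + 1). Cells above the black line have at least 0.1% of their UMIs from 1 hormone gene, and insulin, Gcg and Sst counts there fall mostly in different rows, except in cells 2, 8 and 12.

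Co-expression of different hormones was seen in 3 of the 22 cells at 10 UMIs of each. Cell 2 (72266 UMIs) held insulin, Gcg and Ppy as given above. Cell 8 (13085 UMIs) held 3266 Gcg and 52 Ins2 UMIs but 0 Ins1 UMIs. Cell 12 (59269 UMIs) held 138 Sst, 91 Ins2 and 68 Ins1 UMIs. Scrublet marked none of the 22 cells as a doublet, and the scores of these 3 were 0.0984, 0.0494 and 0.188 under a threshold of 0.251. Cells 2 and 12 also carried markers of another epithelium. Over 7 ductal markers cell 2 held 665 UMIs with all 7 detected, led by Spp1 at 539 and Sox9 at 94, and cell 12 held 175 UMIs with 5 detected. The other 11 of the 13 cells held 0 to 5 ductal UMIs. Cell 12 also held 6457 UMIs of 7 acinar markers. Whether more than 1 cell shared these droplets was not tested. In the remaining 10 of the 13 cells a leading hormone stood beside at most 8 UMIs of a hormone of another type.

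Cells rich in Ins1 were mostly rich in Ins2, but the reverse held less often. Of the 8 cells with 10 or more Ins1 UMIs, 7 had 10 or more Ins2 UMIs, and the exception was cell 7. Of the 16 cells with 10 or more Ins2 UMIs, 7 had 10 or more Ins1 UMIs. The others were cell 8, with 52 Ins2 and 0 Ins1 UMIs, and deep enzyme-rich cells under 0.1%, with 1 to 6 Ins1 UMIs. Gcg and Sst shared no hormone-rich cell even at 1 UMI, nor did Sst and Ppy. Only 2 hormone-rich cells held Sst and 4 held Ppy, so little overlap was possible and its absence is not informative.

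Iapp followed insulin more closely than glucagon. It made up 4.74 to 8.37% of the insulin count in the 6 cells with over 800 Ins1 UMIs, where its own counts ranged from 175 to 1240. In the 4 Gcg-led cells it had 126, 19, 4 and 0 UMIs, and in the 2 Sst-led cells 30 and 1. These counts are not scaled to depth. Among cells with less insulin the proportion was not kept throughout. Iapp stood at 283% of insulin in insulin-led cell 7, 242% in Gcg-led cell 8 and 18.9% in Sst-led cell 12. Chga was more even between types. It had 94, 40, 21, 37, 20, 2 and 0 UMIs in the 7 insulin-led cells and 14, 14, 21 and 3 in the 4 Gcg-led cells. Chgb was lower, with 0 to 13 UMIs in the insulin-led and 0 to 8 in the Gcg-led cells. Each molecule is counted once in such a library whatever its length, so the order of Chga above Chgb is an order of captured molecules.

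Beyond the members, a list of 70 genes of endocrine cells was compared between the summed UMIs of the hormone-rich cells and of the remaining 10925. Of the 52 list genes with 10 or more UMIs in the 22 cells, 35 stood 4-fold or more higher there, where 2.68% of all 7655 genes compared did, and the median fold was 21.5 for the list and 0.752 for all genes. In the 13 cells alone, a comparison added after the data had been seen, 42 of 48 did, where 6.96% of all 4155 genes compared did, and the medians were 98.4 and 1.00. Over the 22 cells, 28 list genes passed 10-fold (1.37% of all genes) and 42 passed 2-fold (8.36%). Without the deepest hormone-rich cell 35 list genes passed 4-fold (2.7% of all genes), without the 2 multi-hormone cells over 50000 UMIs 34 did (2.74%), and against the remaining cells over 10000 UMIs 30 did (2.05%). The folds that follow are for the 13 cells. The comparison has no replicate and no test.

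Of the 20 transcription factors on the list, 14 had 10 or more UMIs in the 13 cells and all 14 passed 4-fold. Over the 22 cells 11 of 15 passed, where 2.68% of all genes compared did. Over all 4155 genes compared in the 13 cells, 6.96% did. The minimum was set on those same cells, so a gene with few UMIs elsewhere could not be compared without passing. Rfx6 stood at 126 CPM against 0.0207 CPM, from 36 UMIs against 1. Neurod1 (57 UMIs against 4), Pax6 (44 against 3) and Myt1 (14 against 0, which makes its fold a lower bound) are likewise factors of all islet types. Mafa, the activator of insulin genes in mature beta cells, had 34 UMIs in 5 of the 7 insulin-led cells. It had 4 in 1 Sst-led cell and 0 in the Gcg-led cells. Counts given by leading hormone are not scaled, and the 7 insulin-led cells held more UMIs in sum than the 4 Gcg-led cells. Nkx6-1, a beta cell factor, had 32 UMIs in 4 insulin-led cells and 1 in a Gcg-led cell. Irx2, a factor of alpha cells, had 10 UMIs in 3 Gcg-led cells and 6 in 1 insulin-led cell. St18, Insm1, Nkx2-2, Isl1, Hhex and Foxa2 stood between 4.04-fold (Foxa2) and 236-fold (St18), and 24 of the 29 Hhex UMIs were in cell 2. Isl1, Hhex and Foxa2 did not pass over the 22 cells, at 2.68, 2.17 and 2.71. Pdx1 had 7 UMIs in 4 insulin-led cells and 0 in the Gcg-led cells, too few to be compared. Neurog3 and Pax4, which act early in endocrine cells, had no UMI in any of the 10947 cells.

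Among the 20 genes of prohormone processing and granules, 13 of the 16 compared in the 13 cells passed 4-fold, where 6.96% of all genes did. Over the 22 cells 12 of 18 passed, where 2.68% of all genes did. Pcsk2 led by level, at 3069 CPM against 1.95 CPM (1575-fold), with UMIs in all 13 cells. Pcsk1 had 38 UMIs in 5 insulin-led cells and 0 in Gcg-led cells. Scg2, Pcsk1n, Snap25, Ptprn, Scg5, Cadps, Syt13 and Syt7, parts of granules and of their release machinery, stood at 61.8-fold (Syt7) to 1316-fold (Scg2). Scg3, Ptprn2 and Cpe had folds of 21.8, 9.74 and 4.33, but Cpe did not pass over the 22 cells, at 1.90. Cpe was widely expressed, at 200 CPM in the remaining cells. Pam, Vamp2 and Gnas, at 1.78, 1.61 and 1.45, did not pass.

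Of the 12 genes of glucose sensing and insulin secretion, 9 had 10 or more UMIs in the 13 cells and passed 4-fold, where 6.96% of all genes did. The other 3 (Kcnj11, Gipr and Nnat) had 1 to 5 UMIs and were not compared. Over the 22 cells 7 of 9 passed, where 2.68% of all genes did. A gene had to reach 10 UMIs in the hormone-rich cells to be compared. For genes with few UMIs elsewhere passing was thus fixed in advance, so the counts of genes that passed favour high genes in each group. G6pc2, the islet glucose-6-phosphatase, had 69 UMIs in 6 of the 13 cells against 2 in the remaining cells. Slc30a8, the granule zinc transporter, had 143 against 10, in 5 insulin-led and all 4 Gcg-led cells. Abcc8, a subunit of the ATP-sensitive potassium channel, had 48 against 13. Slc2a2, the glucose transporter of beta cells, had 42 UMIs in 5 insulin-led cells and 1 in the Gcg-led cells. Ucn3, a marker of mature beta cells, had 13 UMIs, all in 4 insulin-led cells. Glp1r, Ero1lb and Cacna1d stood at 23.6-fold, 4.84-fold and 4.17-fold. Ero1lb and Cacna1d did not pass over the 22 cells, at 3.06 and 2.50.

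Of the 18 other islet genes, 6 of 9 compared in the 13 cells passed, where 6.96% of all genes did. Over the 22 cells 5 of 10 passed, where 2.68% of all genes did, and Ddc did not, at 2.59. In the 13 cells Pyy stood at 2391-fold, Resp18 at 1859-fold, Ghrl (ghrelin) at 188-fold from 10 UMIs in 2 Gcg-led cells, Ttr at 36.5-fold, Rbp4 at 16.9-fold and Ddc at 4.15-fold. Hadh, Gc and Insr, at 2.28, 2.18 and 0.888, did not pass. Dlk1 was far lower, with 6 UMIs in the 13 cells against 22205 in the remaining cells (460 CPM), a fold of 0.0457 that was not among the 9 because of its low count. Npy, Cck, Tph1 and Tph2 had no UMI in the 22 cells.

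**Figure D3:**
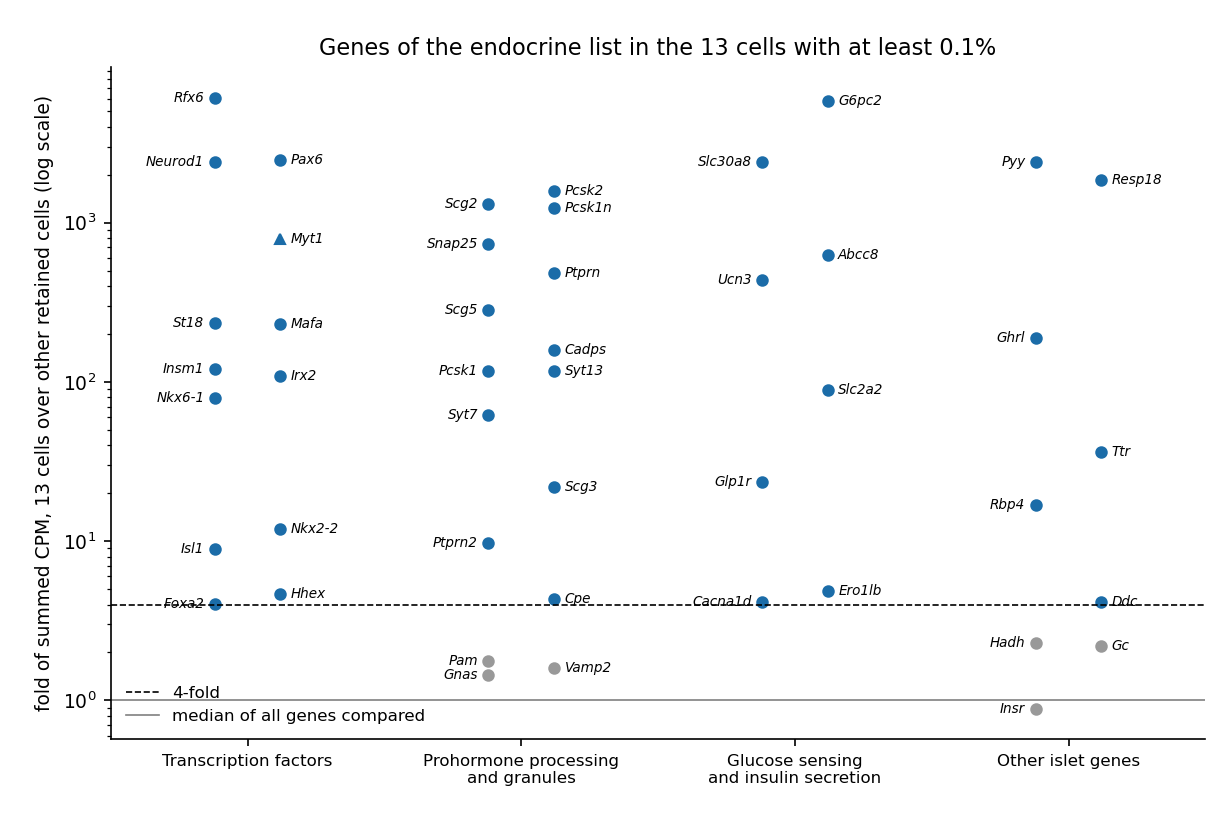
Fold of the summed CPM of the 13 cells over that of the 10925 remaining cells, on a log scale, for 46 of the 48 list genes with 10 or more UMIs in the 13 cells, by group. Blue points pass 4-fold (dashed line), the grey line is the median of all 4155 genes compared, and the triangle (Myt1) is a lower bound computed against a floor of 3 UMIs over the remaining cells.

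Insulin-led and Gcg-led cells differed in more than their hormones, although no test was possible. Among all 22 cells, the genes with the largest CPM ratio (pseudocount of 10 CPM) in the 15 insulin-led cells were Ins1, Ins2, Spp1, Lurap1l, Dsg2, Ptprg, Tmem176b and C2cd4b. Spp1, a ductal gene, stood at 1115 CPM against 25.6 CPM, and 539 of its 907 UMIs were in cell 2. That set includes the 8 deep enzyme-rich cells with 10 to 13 Ins2 UMIs. With the 13 cells alone, also added after the data had been seen, the list after the insulin genes was Pcsk1, Car10, Hepacam2, Mafa, Kcnip1 and Hadh, with 33 to 38 UMIs in 4 or 5 of 7 insulin-led cells and 0 in the 4 Gcg-led cells. The 4 Gcg-led cells also held fewer UMIs in sum, so a count of 0 there weighs less. On the Gcg-led side, Wnk3, Gcg, Ttr, Gria2, Cltrn, Gpx3, Etv1 and Pappa2 led among the 22 cells, with ratios of 15.4 to 27.2. Among the 13 cells that side held Gria2, Ttr, Slc38a5, Gm5771 and digestive enzyme or zymogen granule genes such as Pnliprp2, Sycn, Cela2a and Cela3b. The 31.7% enzyme share of cell 10 stands beside those enzyme genes. In both comparisons the insulin-led side included cell 2, with 67 Ttr UMIs and 2548 of the 2559 Gcg UMIs of the 15 insulin-led cells. Gcg itself was not among the 8 genes of the Gcg-led side for the 13 cells.

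The genes whose pattern over the 22 cells was most like that of Ins2 (Pearson's r of log2 counts per 10000 plus 1, over 9199 genes with a UMI in 5 or more of the cells) were Mlxipl, a glucose-responsive transcription factor (r = 0.946), Ins1 (0.911), Iapp (0.827), Wls (0.815) and Ccdc50 (0.811). Over the 13 cells Mlxipl (0.929) and Ins1 (0.870) were again the nearest, followed by Ero1lb, the oxidase that helps fold proinsulin (0.854). For Gcg they were Pappa2 (0.959), Etv1 (0.939), Pik3c2g (0.887), Gpr119 (0.883) and Smarca1 (0.861), and Pappa2, Etv1 and Pik3c2g led over the 13 cells too. Mlxipl had a UMI in 9 of the 22 cells and Pappa2 in 5. These correlations are descriptions of cells that were chosen by their hormone counts, share 1 library and range from 1130 to 99970 UMIs. Those for Sst (Col15a1, Tm4sf1, Hdac7, Cryab and Fzd4, 0.926 to 0.951) and for Ppy (Dck, Arpc4, Vps26b, Dcx and Mbd6, 0.826 to 0.859) rest on 2 and 4 cells with a UMI of the hormone, and over the 13 cells they were replaced by others apart from Hdac7 (Zeb2, Dlc1, Akt1 and Sparc for Sst, and Lsm2, Slc7a1, Med29, Fgfr1op2 and Phactr4 for Ppy).

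No cluster was made of hormone-rich cells. In a clustering from which the 8 genes were left out, 14 of the 22 lay in a cluster of 165 cells with ductal and acinar markers, 6 in a cluster of 475 deep acinar-like cells, 1 (the Sst cell of 1130 UMIs) among 5283 fibroblast-like cells and 1 (the insulin cell of 4684 UMIs) in a cluster of 418 cells with cell cycle, T cell and fibroblast markers. The 13 cells held medians of 1 ductal and 33 acinar marker UMIs, against 80 and 1123 in the other 151 cells of the first cluster.

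Outside the hormone-rich cells Ins1, Ins2, Gcg and Iapp were present at a low level in each of the 16 classes of cell, whereas Sst, Ppy, Chga and Chgb each had no UMI in several classes. Ins2 had 3762 UMIs in 2532 of 10925 cells (23.2%, 22.4 to 24.0%), and 74.6% of these cells held 1 UMI. Ins1 had 1786 UMIs in 1395 cells (12.8%), Iapp 519 in 464 (4.25%) and Gcg 462 in 411 (3.76%). Chga (31 UMIs), Ppy (30), Chgb (12) and Sst (8) were nearly absent. In CPM the 8 genes stood at 78.0 for Ins2, 37.0 for Ins1, 10.8 for Iapp, 9.57 for Gcg, 0.642 for Chga, 0.622 for Ppy, 0.249 for Chgb and 0.166 for Sst.

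The share of cells with an Ins2 UMI followed depth. It was 11.2% (9.92 to 12.6%) among cells of 800 to 1500 UMIs, 21.5% among those of 2500 to 5000, 61.3% among those of 10000 to 20000 and 100% (93.6 to 100%) among those over 50000. The level did not rise steadily with depth. From the shallowest to the deepest of 7 bins it was 103 CPM (91.0 to 116), 78.2, 71.8, 69.0 (64.1 to 74.1), 79.1, 96.1 (88.8 to 104) and 71.3 CPM, so the bin of 20000 to 50000 UMIs stood above that of 5000 to 10000. B cell-like cells, which do not make insulin, held an Ins2 UMI in 13.8% of cells at a median of 1450 UMIs, and deep acinar-like cells in 72.9% at a median of 11789. After every cell was drawn down to 800 UMIs, the B cell-like share became 6.81% (4.79 to 9.34%) and the deep acinar-like share 7.25% (5.07 to 9.98%). Other classes ranged from 3.61% (2.08 to 5.80%) in endothelial-like cells and 5.04% in fibroblast-like cells to 10.0% (7.66 to 12.8%) in shallow acinar-like and 13.8% (7.34 to 22.9%) in Schwann-like cells. Such shares arose also in classes that do not make insulin, and the source of these UMIs was not tested in any class.

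Levels outside the hormone-rich cells were not fully even between classes. Ins2 ran from 47.6 CPM (40.4 to 55.7) in endothelial-like cells to 123 CPM (109 to 138) in shallow acinar-like cells, with deep acinar-like cells next at 109 CPM (102 to 117), and the first interval does not meet the other two. Schwann-like (92.7 CPM), red blood cell-like (92.3), ductal and acinar (89.3), T cell-like (87.9) and B cell-like cells (82.2) followed, and their intervals overlap with one another. Fibroblast-like cells were lower at 68.6 CPM (64.8 to 72.5). The acinar-like classes drew 51.0 and 42.2% of their UMIs from digestive enzymes, against 1.74% in endothelial-like cells. With enzyme UMIs left out of the total, the shallow acinar-like level was 251 CPM and that of endothelial-like cells 48.4 CPM. Gcg ran between 6.74 CPM (5.59 to 8.05) in fibroblast-like and 16.7 CPM (6.72 to 34.4) in dendritic cell-like cells, with deep acinar-like cells at 16.5 CPM (13.9 to 19.6). Whether the enzyme content of a droplet has a part in its hormone level was not tested.

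**Figure D4:**
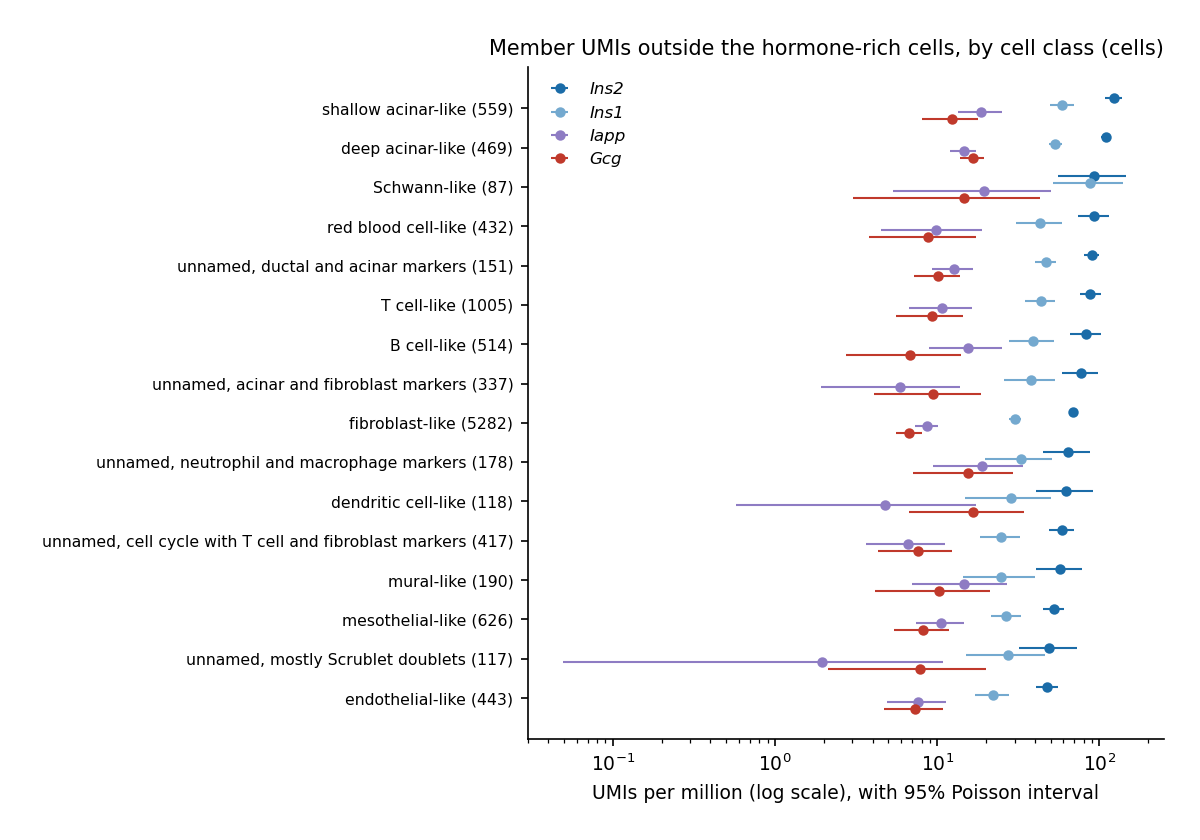
CPM of Ins2, Ins1, Iapp and Gcg on a log scale, with exact 95% Poisson intervals, in each class of cell after the hormone-rich cells were left out (number of cells in parentheses). Ins2 lies between 47.6 and 123 in all 16 classes, and the order of Ins2 above Ins1 above Iapp and Gcg holds in each class.

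Ratios between the genes were compared within and outside the hormone-rich cells. Ins1 per Ins2 UMI was 0.475 (0.448 to 0.502) in the remaining cells and 0.545 (0.536 to 0.553) in the hormone-rich cells, and the intervals do not overlap. The 6 cells rich in both genes differed among themselves by more, at 0.618 (0.602 to 0.633), 0.592, 0.488, 0.465, 0.460 and 0.423 (0.391 to 0.458), and without the first of them the pooled ratio was 0.498. The 16 classes outside ran from 0.419 to 0.947, and the interval of each of them took in 0.475. Gcg per Ins2 UMI was 0.123 (0.111 to 0.135) in the remaining cells and 0.218 (0.213 to 0.223) in the hormone-rich cells, but 0.110 (0.107 to 0.112) over the 15 barcodes with at least 0.1% when those outside the depth limits were counted too, so its direction depended on the depth limits. Iapp per Ins2 UMI was 0.138 (0.126 to 0.151) and 0.0898 (0.0868 to 0.0929).

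**Figure D5:**
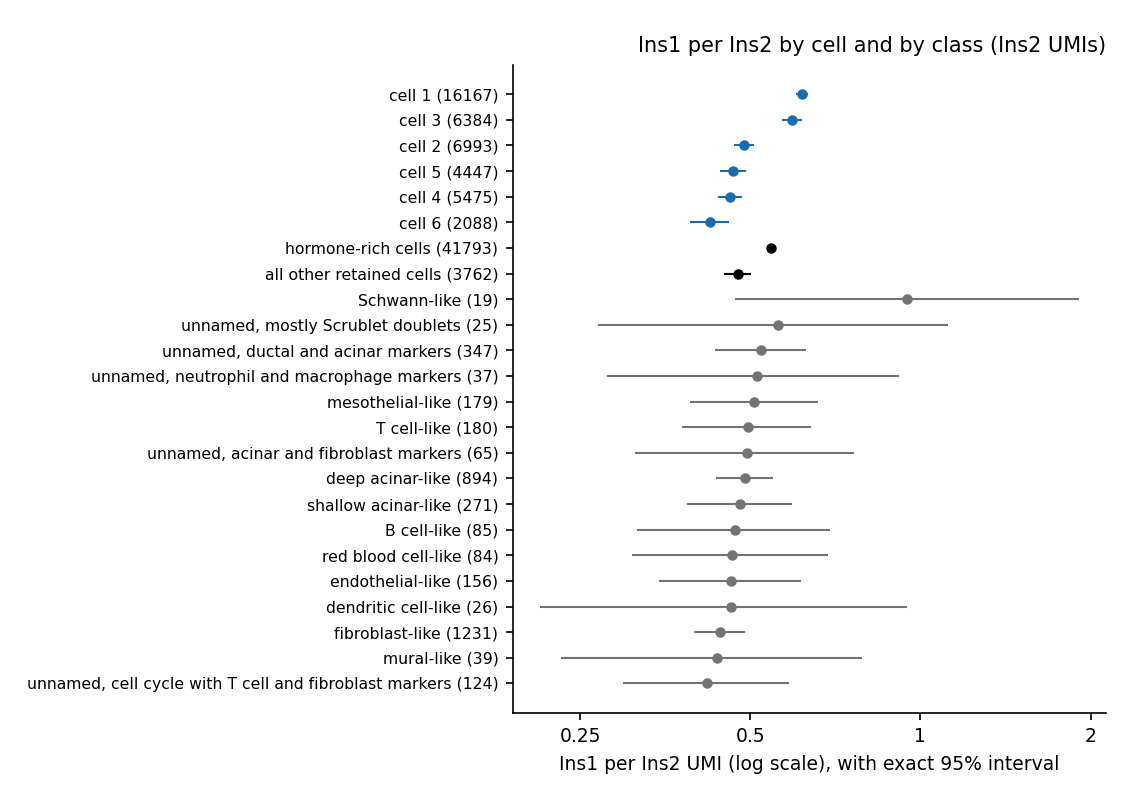
Ins1 per Ins2 UMI, on a log scale with exact 95% intervals, in the 6 cells with over 2000 Ins2 UMIs (blue), in the hormone-rich and all remaining cells (black), and in each class outside the hormone-rich cells (grey). Ins2 UMIs are in parentheses, and the blue cells range from 0.423 to 0.618 while most grey intervals lie around 0.475.

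Cells with other endocrine transcripts but few hormone UMIs were looked for in the same way. Of the cells outside the hormone-rich set, 29 held 5 or more UMIs of the 12 endocrine markers, 2 held 10 or more and none held 20, whereas 11 of the 13 cells held 20 or more. The 2 cells owed 12 of 12 and 9 of 10 of these UMIs to Nkx2-2, and most of the rest owed them mainly to Isl1 (in mesothelial-like cells), Nkx2-2 or Scg3.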

How the data were processed

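The deposited values were raw counts: UMIs per gene and barcode of 1 single-cell library made with droplet 3′ chemistry, which the authors obtained with Cell Ranger 7.1.0 on mm10, per the submitters' processing notes. The authors ran it with default settings, under which reads that match more than 1 gene are not counted. Depth ranged from 500 to 174899 UMIs per barcode. Barcodes were kept above 800 and below 100000 UMIs and below 15% mitochondrial UMIs. The members and gene lists were chosen with earlier results of these data known.

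A hormone-rich cell held 10 or more UMIs of Ins1, Ins2, Gcg, Sst or Ppy. Cells were clustered without the 8 genes (Seurat 5.3.0, R 4.3.3, 2000 variable genes, 30 principal components, resolution 0.5), and classes were called "-like" where 3 or more listed markers were raised. Scrublet (scanpy 1.11.5) marked 592 cells (5.41%) as doublets, which were kept. Counts were summed over cells and scaled to CPM, with exact Poisson, binomial (Clopper-Pearson) and ratio intervals (scipy 1.17.1, numpy 2.4.6, pandas 2.3.3, Python 3.11.15), and plotted with matplotlib 3.10.9. With 1 library, no test between groups was possible. Folds needed 10 UMIs in the hormone-rich cells, and 4-fold was the threshold. All 70 listed endocrine genes were measured, Ero1b under its older symbol Ero1lb. Named genes were the 8 members, listed genes past the threshold with up to 10 that were not, the 8 largest CPM ratios on each side between insulin-led and Gcg-led cells (20 or more UMIs), and the 5 patterns most like each hormone. Some listed genes are not reported here. Other genes named, such as Neurog3, and the values of single cells were chosen after the data had been seen. Positions and sequences came from GENCODE M21 (GRCm38). The scripts were tested on simulated data. The knockout library was not analysed here.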

Additional observations from a re-analysis of the deposited data

Results flagged for a closer look

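Barcodes outside the depth limits, which entered none of the values above, also held hormone transcripts. There were 9 such barcodes with 10 or more UMIs of a hormone gene, 8 over the upper limit and 1 under the lower. One barcode of 128797 UMIs held 41301 Ins2 and 21379 Ins1 UMIs, more of each than any retained cell, with 3891 Iapp, 357 Chga, 59 Chgb and 138 Ppy UMIs and no Gcg UMI. All 12 endocrine markers were detected in it (1191 UMIs), and its Ins1 per Ins2 UMI was 0.518. A barcode of 710 UMIs held 32 Gcg UMIs (4.51%) and 6 Ppy UMIs. The other 7 had 106604 to 134825 UMIs, 10 to 20 Ins2 UMIs, no Chga or Chgb UMI and 31.5 to 49.6% of UMIs from digestive enzymes.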

How the results depend on the processing

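The number of hormone-rich cells depended on the limits. With an upper limit of 10000 UMIs, 5 of the 22 cells were left, of which 2 were led by insulin, 2 by Gcg and 1 by Sst, 1 held 10 UMIs of more than 1 hormone gene and 0 held insulin with another hormone. With no upper limit 23 were led by insulin. A minimum of 5 UMIs gave 112 cells (104 led by insulin), a minimum of 20 gave 11 (6 led by insulin, 1 by Sst), and a minimum of 10 UMIs with 0.1% of the cell gave 13 (7 led by insulin). A lower limit of 1500 UMIs left 1 led by Sst. The share of hormone UMIs in hormone-rich cells, 92.4%, was 59.1% with the upper limit of 10000, 95.7% with none, 92.9% with the lower limit of 1500, 92.8% with a mitochondrial limit of 5% and also without Scrublet doublets, and 93.5 and 92.2% with minimums of 5 and 20. By gene, the share with the upper limit of 10000 was 89.7% for Gcg, 76.9% for Sst, 50% for Chga and 47.4% for Ins2. It was 45.3% for Ins1, 42.7% for Iapp, 28.6% for Chgb and 0% for Ppy. Ins1 per Ins2 UMI in hormone-rich cells was 0.430 with the upper limit of 10000, 0.531 with none and 0.498 without the cell richest in Ins2. The lowest Ins2 level of a class was 29.5 CPM at a clustering resolution of 1.0. The highest was 251 CPM with enzyme UMIs left out of the total, 187 CPM with cells thinned to 800 UMIs and 162 CPM with the upper limit of 10000. The causes were not tested. In 70 other recomputed values of these results the change was smaller than the counting error or, for counts, under 1.5 times. The number of listed genes past the fold in the 22 cells was 35 at 4-fold (2.68% of all genes), 28 at 10-fold (1.37%) and 42 at 2-fold (8.36%). No paired analysis was possible because there was 1 library. Its depth, at a median of 2650 UMIs per cell, and its pooled animals limit every value.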

Other observations

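Outside the hormone-rich cells, Ins2 was found more often in cells with a UMI of another hormone than in all cells. Of the cells with an Ins1 UMI, 605 of 1395 (43.4%) also held an Ins2 UMI, and of those with a Gcg UMI, 205 of 411 (49.9%) did, while 23.2% of all these cells did. Depth moved with this. Within cells of 800 to 1500 UMIs, Ins1 was found in 7.87% of cells with Ins2 and 4.96% of cells without, and within those of 10000 to 20000 UMIs in 41.1 and 32.0%. The part of depth within these bins was not tested. Ppy per Gcg UMI was 0.0143 in the hormone-rich cells and 0.0649 outside them, from 30 Ppy UMIs, and it was 0.0301 over the 15 barcodes with 0.1% or more when those outside the depth limits were counted too.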
